A study of Mus musculus with 22 samples.

Results

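Fpr1 and Fpr2 encode the formyl peptide receptors of mouse neutrophils. They are described here in bulk isolates from mammary tumours, selected for Ly6G as G-MDSCs. G-MDSCs are the granulocytic kind of myeloid-derived suppressor cell, which resembles a neutrophil and dampens T cell responses. The isolates also held transcripts typical of other cell types, and these data do not measure suppression. Fpr1 and Fpr2 were chosen by name, as 2 of the 675 genes on a NanoString mouse myeloid panel. The data comprised 22 samples in 5 groups. Every tumour grew from NT2.5 cells, a line derived from a spontaneous mammary tumour, of which 50000 were placed in the mammary fat pad of female FVB-Neu-N mice aged 7 to 8 weeks, a strain with a rat neu (HER2) transgene. From day 3 the mice were treated for 3 weeks. The 6 vehicle samples came from mice given 0.5% methylcellulose with isotype antibodies. The 4 entinostat samples came from mice given 5 mg/kg of the class I histone deacetylase inhibitor entinostat by gavage each day. A further 4 samples had entinostat plus anti-PD-1, 4 had entinostat plus anti-CTLA-4, and 4 had all 3 agents (the triple combination). Each antibody was dosed at 100 µg per mouse 2 times a week and blocks a checkpoint receptor of T cells. No group received an antibody without entinostat, so the part of an antibody alone cannot be read from these samples. The labels do not say whether these mice also received an anti-HER2 antibody, whether animals were pooled, or whether the samples of a group came from different animals. The p-values therefore describe only sample-to-sample spread, some or all of which may be technical.

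Formyl peptide receptors are G protein-coupled receptors that read N-formylated peptides, which are released by bacteria and by the mitochondria of damaged cells. In neutrophils, ligand binding activates inhibitory G proteins and phosphoinositide 3-kinase gamma and starts chemotaxis, release of granules and the oxidative burst. Fpr1 is a receptor for short formyl peptides. Fpr2 also binds lipids and host proteins, among them annexin A1, serum amyloid A and the cathelicidin peptide, and can carry either inflammatory or resolving signals. In mice the family includes further members, several of which act in the vomeronasal organ.

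Both genes lie side by side on chromosome 17. In the GRCm38.p6 annotation of RefSeq, Fpr1 occupies chr17:17876471-17883939 on the minus strand and Fpr2 occupies chr17:17887824-17893952 on the plus strand. They are transcribed away from each other, with 3884 bases and 0 annotated genes between them. The 250 bases upstream of each annotated start are shown, each on its gene's own strand and credited to RefSeq. The Fpr1 stretch is chr17:17883940-17884189 (minus strand) and the Fpr2 stretch is chr17:17887574-17887823 (plus strand). Capitals mark each GGAA or its reverse complement TTCC, the core bound by ETS factors such as PU.1, a regulator of myeloid genes.
Fpr1: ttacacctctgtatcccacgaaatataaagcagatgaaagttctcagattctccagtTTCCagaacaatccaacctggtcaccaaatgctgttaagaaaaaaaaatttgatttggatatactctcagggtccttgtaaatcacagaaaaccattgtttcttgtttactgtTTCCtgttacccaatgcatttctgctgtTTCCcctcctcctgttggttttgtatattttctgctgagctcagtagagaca
Fpr2: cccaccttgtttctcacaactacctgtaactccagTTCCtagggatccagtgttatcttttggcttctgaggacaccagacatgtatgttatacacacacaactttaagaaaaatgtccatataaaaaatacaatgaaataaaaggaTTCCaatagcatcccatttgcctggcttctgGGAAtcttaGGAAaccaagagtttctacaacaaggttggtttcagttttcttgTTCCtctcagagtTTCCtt
The ETS core occurred 3 times upstream of Fpr1 and 6 times upstream of Fpr2, counting both strands. Of 27025 mouse promoter stretches of the same length, 93.4% held at least 1 core, 54.8% at least 3 and 8.70% at least 6. The longer motif GAGGAA, which contains the ETS core, occurred 0 times for Fpr1 and 1 time for Fpr2, and 23.1% of all stretches held it. No match to TTGCNNAA (C/EBP, in 9.55% of stretches), TGANTCA (AP-1, in 6.87%) or the NF-kB motif (in 4.00%) was found in either stretch, again on both strands. These matches describe letters in the reference, not bound sites, and any part of them in the receptor levels was not tested.

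Each transcript was counted through a fluorescent barcode without amplification, and the deposited values are normalized counts. In every sample these values were whole multiples of a fixed step, so barcode counts could be recovered, with totals of 23296 to 443821 per sample and a median of 179364. A single barcode count was worth 1.77 to 2.32 normalized counts in the entinostat samples and 0.400 to 0.614 in entinostat plus anti-CTLA-4 samples 1, 3 and b. In triple combination sample 2, the sample of lowest depth, it was worth 9.78. Lanes were spread over 2 cartridges. On cartridge 1 were 3 vehicle samples, all entinostat and entinostat plus anti-PD-1 samples and triple combination sample a, with the rest on cartridge 2. By lane, triple combination sample a lay among vehicle samples and vehicle sample 3 lay beside triple combination samples, and the groups of the labels were kept. Without both samples, entinostat against vehicle gave log2 fold changes of 1.73 for Fpr1 and 1.98 for Fpr2, entinostat plus anti-PD-1 against vehicle 1.12 and 1.62, and the triple combination against vehicle 0.12 and 0.80, with no call changed in any comparison. Letters a and b name columns whose header gives the group and not the number. The cells had been selected for Ly6G, yet the Ly6g probe exceeded its sample's negative-control limit (mean plus 2 SD of 8 control probes) in 1 of 22 samples. The neutrophil genes S100a8, S100a9, Csf3r and Cxcr2 exceeded it in 22 of 22. Cdh1, an epithelial gene, lay between 717 and 1310 normalized counts in all samples. Fold changes below are differences between group means of log2(normalized count + 1), given with standard errors (SE). Each adjusted p is two-sided and comes from limma with Benjamini-Hochberg adjustment over 440 genes above background.

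Fpr1 was measured from few barcodes. In vehicle it stood at 14.2, 40.0, 18.9 and 13.9 normalized counts in samples 1 to 4, 12.4 in sample V1 and 24.4 in sample V2. After entinostat alone it stood at 62.0, 65.0, 71.5 and 63.0 in samples 1 to 4, and after entinostat plus anti-PD-1 at 52.4, 39.4, 32.6 and 47.6. All 4 entinostat samples lay above every vehicle sample, as for 15.2% of genes tested, and vehicle sample 2 lay within the range of the anti-PD-1 samples. With entinostat plus anti-CTLA-4 it was 7.99 in sample 1, 9.21 in sample 3, 47.3 in sample a and 6.38 in sample b. In the triple combination it was 9.78 in sample 2, 31.0 in sample 4, 20.6 in sample a and 28.7 in sample b. Anti-CTLA-4 sample a therefore stood apart from the other 3 of its group, within the range of the anti-PD-1 samples. The barcode counts behind these values were 11 to 39 in 21 samples and 1 in triple combination sample 2. That single count has a 95% Poisson interval of 0.248 to 54.5 normalized counts, which covers counting error only. Fpr1 exceeded the negative-control limit in 20 of 22 samples, the others being triple combination sample 2 and anti-CTLA-4 sample 3 (15 counts against a limit of 15.1). The background used to choose genes for testing was higher, at 29.3 normalized counts. Mean Fpr1 lay below it in vehicle (20.6), with anti-CTLA-4 (17.7) and in the triple combination (22.5). Fpr1 was therefore tested only because of its levels after entinostat (65.4) and with anti-PD-1 (43.0).

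Fpr2 rested on 12 to 178 barcode counts and exceeded the negative-control limit in 22 of 22 samples. In vehicle it stood at 39.9, 209, 124 and 51.1 normalized counts in samples 1 to 4, 48.9 in V1 and 54.8 in V2. After entinostat it was 239, 278, 311 and 218, and after entinostat plus anti-PD-1 it was 216, 182, 168 and 252. Vehicle sample 2 was high for both receptors and was the only vehicle sample inside the anti-PD-1 range, while no vehicle sample reached the entinostat range. With entinostat plus anti-CTLA-4 it was 23.6 in sample 1, 46.7 in sample 3, 202 in sample a and 29.0 in sample b. The triple combination gave 117, 110, 85.1 and 115 in samples 2, 4, a and b, a narrower span than the other antibody groups. Probes differ in efficiency, so the levels of the 2 genes are not set against each other.

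**Figure D1:**
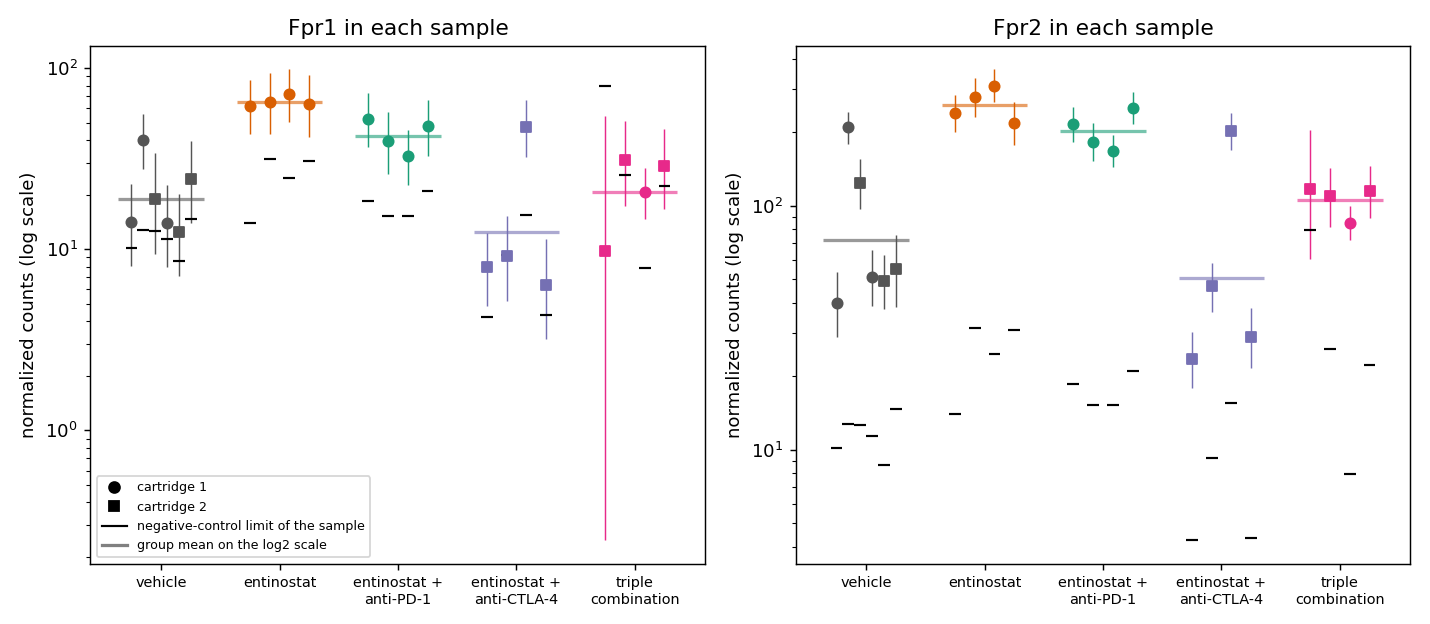
Fpr1 (left) and Fpr2 (right) in each of 22 samples, as normalized counts on a log axis, with 95% Poisson intervals for counting error, group means on the log2 scale as wide bars and each sample's negative-control limit as a short black bar. Shape gives the cartridge. All 4 entinostat samples lie above every vehicle sample for both genes, and anti-CTLA-4 sample a (47.3 and 202) lies far above the other 3 of its group.

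On the deposited scale the groups had the same order for both receptors, though the place of the triple combination for Fpr1 changed under other scalings. Mean Fpr1 on the log2 scale ran from 6.05 ± 0.091 (SD, n = 4) after entinostat through 5.44 ± 0.30 (n = 4) with anti-PD-1, 4.44 ± 0.72 (n = 4) in the triple combination and 4.32 ± 0.61 (n = 6) in vehicle to 3.75 ± 1.24 (n = 4) with anti-CTLA-4. For Fpr2 the means were 8.02 ± 0.23, 7.67 ± 0.26, 6.74 ± 0.21, 6.20 ± 0.93 and 5.69 ± 1.38 in that order. A moderated F test over the 5 groups passed for Fpr1 (limma adjusted p = 0.00673) and Fpr2 (0.00823), as it did for 32% of the genes tested. None of the 4 steps between neighbours in this order passed for either gene, with limma adjusted p of 0.488 to 0.971. Fpr1 did not overlap between entinostat and entinostat plus anti-PD-1, as for 3.64% of genes in that direction. Neither gene overlapped between entinostat plus anti-PD-1 and the triple combination, as for 12.7%. In bulk RNA, fewer cells of a type and less RNA per cell cannot be told apart in any of these differences.

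Entinostat alone against vehicle asked what the histone deacetylase inhibitor changed. Both receptors rose. Mean Fpr1 was 65.4 ± 4.28 normalized counts (SD, n = 4) against 20.6 ± 10.4 (n = 6), so its log2 fold change was 1.73 ± 0.43 (SE; adjusted p = 0.00893 by limma). That vehicle mean lay below the background of 29.3 normalized counts used to choose genes, so the Fpr1 rise was partly set by the filter. Mean Fpr2 was 262 ± 41.1 against 87.9 ± 66.7, so its log2 fold change was 1.83 ± 0.48 (adjusted p = 0.0104). Both were called where 39.8% of all genes were (35.2% higher and 4.55% lower). Neither receptor overlapped between these groups, which held for 15.2% of genes in the higher and 2.27% in the lower direction. The median of all genes tested was itself 0.47 higher on the log2 scale, and after centring each sample on its median the fold changes were 1.21 (adjusted p = 0.0164) and 1.30 (0.0137). Under quantile normalization the Fpr1 value was 1.01 (adjusted p = 0.0113). On cartridge 1 alone, with 3 vehicle samples, the values were 1.66 (adjusted p = 0.0171) and 1.77 (0.0293). Both calls held with any 1 sample left out, and without vehicle samples V1 and V2 the Fpr2 value of 1.59 no longer passed (adjusted p = 0.0516).

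Adding anti-PD-1 to entinostat asked whether the checkpoint antibody altered the level reached with the drug. Against vehicle, with which the previous comparison shares its 6 controls, Fpr2 was called (205 ± 37.5 normalized counts, log2 fold change 1.47 ± 0.48, limma adjusted p = 0.0392) where 19.3% of genes were (18.2% higher and 1.14% lower). Fpr1 stood at 43.0 ± 8.75, and its log2 difference of 1.12 ± 0.43 did not pass (adjusted p = 0.0708). All 4 samples lay above the vehicle mean for both, but overlapped vehicle sample 2, whereas 8.64% of genes were higher without overlap. These results sat on either side of the threshold and depended on the settings. The Fpr2 call was lost when any of vehicle samples 1, 4, V1 or V2, or any of the 4 anti-PD-1 samples, was left out (adjusted p of 0.0589 to 0.130), on cartridge 1 alone (0.0796) and with cartridge as a block (0.0679). It was lost as well in edgeR on barcode counts (0.105 with the deposited scaling, 0.0650 with TMM factors). Fpr1 passed without vehicle sample 2 (1.33, adjusted p = 0.0228), without anti-CTLA-4 sample a (0.00974), which enters only through the shared spread, and in a fit of these 2 groups alone (0.0340). Against entinostat alone the differences were -0.61 ± 0.47 for Fpr1 (95% interval -1.60 to 0.38) and -0.36 ± 0.53 for Fpr2 (-1.47 to 0.75), both with an adjusted p of 0.971. That comparison called 0% of genes in limma and 0 in edgeR, with 8 at an unadjusted p under 0.05 in limma. The Fpr1 values of these groups did not overlap, which held for 3.64% of genes in the lower direction.

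Entinostat plus anti-CTLA-4 asked the same of the other antibody. Both receptors fell against entinostat alone, whose 4 samples also enter the other comparisons with entinostat. Mean Fpr1 was 17.7 ± 19.7 normalized counts (SD, n = 4), 4.93-fold lower on the log2 mean, a difference of -2.30 ± 0.47 (SE; adjusted p = 0.00269 by limma). Fpr1 passed the background filter only through the entinostat and anti-PD-1 groups, so its falls against either were partly set by the filter. In samples 1, 3 and b it rested on 20, 15 and 11 barcode counts, or 3.20, 2.14 and 3.26 times the mean of their negative controls. The Fpr1 fold value thus leans on levels near background. Mean Fpr2 was 75.4 ± 85.2, 5.03-fold lower, a difference of -2.33 ± 0.53 (adjusted p = 0.00332). No value overlapped between these groups, as for 22.3% of genes in that direction, and both genes were called where 47.3% were (41.1% lower and 6.14% higher), with a median over all genes of -0.63. Centred on sample medians the differences were -1.62 and -1.65, and under quantile normalization they were -1.10 (adjusted p = 0.00825) and -1.54 (0.00430). In edgeR with TMM factors the Fpr2 value was -1.44 (0.0134). Without sample a the differences were -2.92 and -2.99. No cartridge held both groups. With cartridge as a block, estimated through the vehicle and triple combination samples, the values were -2.20 (adjusted p = 0.0248) and -2.39 (0.0274).

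Set against entinostat plus anti-PD-1, the anti-CTLA-4 group was lower in both receptors, by log2 differences of -1.69 ± 0.47 for Fpr1 (limma adjusted p = 0.0137) and -1.97 ± 0.53 for Fpr2 (0.0117), with 29.8% of genes called (28.2% lower). In 3 of 4 samples both lay below the anti-PD-1 mean of the log2 values, sample a being the exception. Both calls were lost without sample 1 (adjusted p = 0.0629 for each) and without sample b (0.0625 and 0.0546), and with cartridge as a block (0.0910 and 0.0646), and these groups shared no cartridge. Against vehicle the differences were -0.57 ± 0.43 for Fpr1 (95% interval -1.47 to 0.34) and -0.50 ± 0.48 for Fpr2 (-1.51 to 0.51), with an adjusted p of 0.969 for both. That comparison called 0% of genes in limma, with 6 at an unadjusted p under 0.05, and 0 in edgeR. Leaving out 1 sample moved these differences either way. They were -1.18 (adjusted p = 0.129) and -1.16 (0.147) without sample a, -0.37 and -0.15 without sample 1, -0.28 and -0.24 without sample b, and -0.36 and -0.20 without vehicle sample 2.

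The triple combination asked how both antibodies acted together on top of entinostat. Fpr1 stood at 22.5 ± 9.60 normalized counts (SD, n = 4) and Fpr2 at 107 ± 14.8. Against vehicle the log2 fold changes were 0.12 ± 0.43 (95% interval -0.78 to 1.03, limma adjusted p = 0.841) and 0.54 ± 0.48 (-0.47 to 1.55, 0.488). The Fpr1 difference turned negative under median centring, quantile normalization and subtraction of the negative controls, and without triple combination sample 4 or b. Against entinostat alone the values were -1.61 ± 0.47 (adjusted p = 0.274) and -1.28 ± 0.53 (0.324). They did not overlap for either gene, as for 18.2% of genes in the lower direction. Fpr1 passed that comparison without anti-CTLA-4 sample a (adjusted p = 0.0256). Against entinostat plus anti-PD-1 the differences were -0.997 ± 0.47 and -0.93 ± 0.53 (adjusted p = 0.607 and 0.685), again without overlap, as for 12.7% of genes.

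Against entinostat plus anti-CTLA-4 the triple combination differed by 0.69 ± 0.47 for Fpr1 and 1.05 ± 0.53 for Fpr2 (adjusted p = 0.309 and 0.205). Without anti-CTLA-4 sample a these were 1.31 (adjusted p = 0.00926) and 1.71 (0.00510). The interaction, which asks whether the difference made by either antibody under entinostat depended on the other, was 1.30 ± 0.67 for Fpr1 and 1.41 ± 0.75 for Fpr2 (adjusted p = 0.262 for both). Without sample a it was 1.92 (adjusted p = 0.0151) and 2.06 (0.0175). These 5 comparisons called 0% of genes in limma and 0 in edgeR. At an unadjusted p under 0.05 limma counted 60 genes for the triple combination against vehicle, 56 against entinostat, 34 against entinostat plus anti-PD-1, 116 against entinostat plus anti-CTLA-4 and 82 for the interaction.

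**Figure D2:**
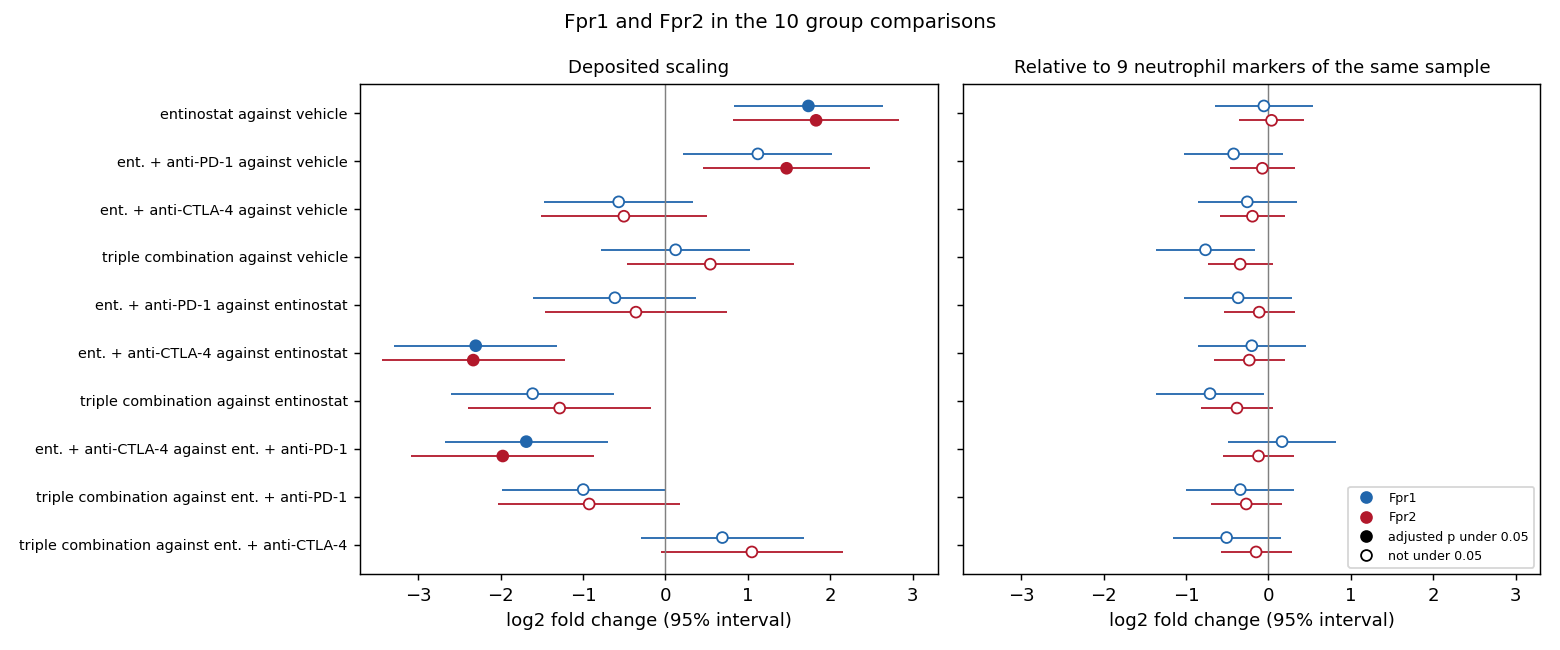
Log2 fold changes of Fpr1 and Fpr2 with 95% intervals in the 10 comparisons between groups, on the deposited scale (left) and relative to the mean of 9 neutrophil markers of the same sample (right). Filled points have a limma adjusted p under 0.05. On the left, 7 points are filled, among them -2.30 and -2.33 for anti-CTLA-4 against entinostat. On the right none is.

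Neutrophil markers moved with both receptors. Of 13 measured markers, 9 lay above background, and all 9 rose after entinostat and after entinostat plus anti-PD-1 against vehicle and fell with anti-CTLA-4 against either group. Among all genes tested, 35.2% and 18.2% rose and 41.1% and 28.2% fell in these comparisons. Camp passed the background filter through the entinostat group alone (mean 33.4 normalized counts), so its changes against that group were partly set by the filter. Elane, above its negative-control limit in 14 of 22 samples, did not pass the filter. The summed level of the 13 ran from 5922 to 25070 normalized counts in vehicle (median 6895), from 21515 to 41421 after entinostat (median 32966) and from 23843 to 31411 with anti-PD-1. It ran from 3528 to 22260 with anti-CTLA-4 and from 15388 to 19638 in the triple combination. The highest vehicle value was that of sample 2 and the highest anti-CTLA-4 value that of sample a, the samples in which both receptors were high. The receptors were therefore also measured relative to the mean log2 level of these 9 markers in the same sample. A sample's scaling factor cancels here too, except for the pseudocount of 1 in low values.

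Relative to the neutrophil markers, neither receptor was called in any of the 10 comparisons or the interaction. Entinostat against vehicle gave -0.055 ± 0.29 for Fpr1 (95% interval -0.65 to 0.54, limma adjusted p = 0.872) and 0.038 ± 0.19 for Fpr2 (-0.36 to 0.43, 0.869), while 73.4% of all genes were called on this scale. Before subtraction the 9 markers had a median of 1.80 in that comparison, against 0.47 for all genes, so subtracting them itself shifts a typical gene. The shares called here and below partly reflect that shift and do not show that the receptors are unusual. Anti-CTLA-4 against entinostat gave -0.20 ± 0.32 (-0.86 to 0.45, 0.600) and -0.23 ± 0.21 (-0.66 to 0.20, 0.353), with 66.1% of genes called. For entinostat plus anti-PD-1 against vehicle the values were -0.42 ± 0.29 (adjusted p = 0.196) and -0.074 ± 0.19 (0.738), with 70% of genes called. Anti-CTLA-4 against anti-PD-1 gave 0.17 ± 0.32 (0.671) and -0.12 ± 0.21 (0.639), with 65.7% called. The other 6 comparisons and the interaction called 0% on this scale. The Fpr1 difference between the triple combination and vehicle was -0.76 ± 0.29 (95% interval -1.36 to -0.17, adjusted p = 0.128), in a comparison that called 0% of genes in limma with 156 at an unadjusted p under 0.05. It was -0.39 without triple combination sample 2, the sample with 1 Fpr1 barcode count, and it passed without vehicle sample 2 (-0.80, adjusted p = 0.0374) or anti-CTLA-4 sample a (0.0422).

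Across the 22 samples the log2 levels of the receptors followed the neutrophil marker mean, with a Pearson r of 0.891 for Fpr1 and 0.981 for Fpr2. Spearman's rho was 0.911 and 0.958. Each of the 4 had a permutation p of 1e-05, the smallest that 100000 resamples can give, also when adjusted over the 3 relations examined. Samples were shuffled across all groups, so this p also reflects differences between groups. Within cartridges r was 0.955 and 0.739 for Fpr1 and 0.986 and 0.961 for Fpr2. After subtracting group means r was 0.798 for Fpr1 and 0.976 for Fpr2, with a rho of 0.631 and 0.954. Without anti-CTLA-4 samples b and 1, the samples farthest from the median of the marker mean, r was 0.842 for Fpr1 and 0.973 for Fpr2. The points share each sample's scaling factor.

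**Figure D3:**
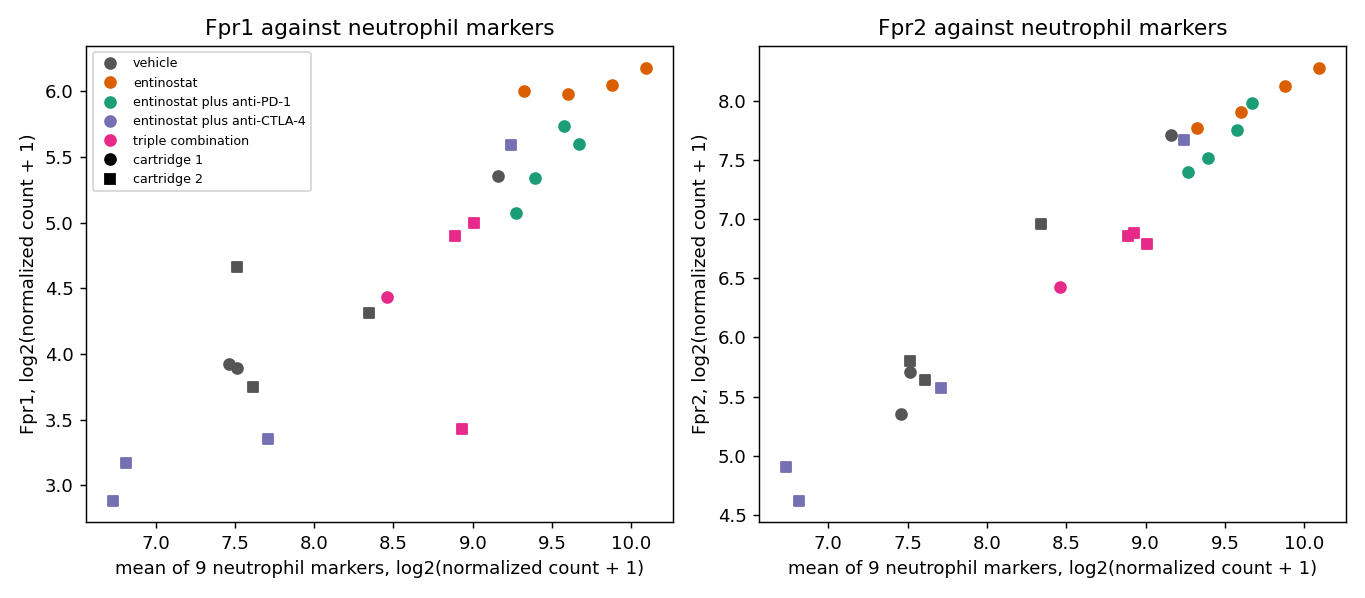
Fpr1 (left) and Fpr2 (right) against the mean of 9 neutrophil markers, all as log2(normalized count + 1), with 1 point per sample, colour for the group and shape for the cartridge. Fpr2 lies close to a line (r = 0.981). Fpr1 is more scattered (r = 0.891), with triple combination sample 2 lowest for its marker level.

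Other cell types were looked for with lists of markers, as far as the panel held them. All 7 pan-leukocyte genes measured rose after entinostat against vehicle and fell with anti-CTLA-4 against entinostat, where 35.2% and 41.1% of all genes tested did. Cdh1, a cell adhesion gene of epithelium, was the only gene of the epithelial list on the panel. Cdh1 fell after entinostat (-0.41, limma adjusted p = 0.0405) and was higher with anti-CTLA-4 than after entinostat alone (0.46, adjusted p = 0.0339). Its median was 809 normalized counts after entinostat, against 1104 in vehicle and 1213 with anti-CTLA-4. The lowest Cdh1 value of each of the latter groups was that of vehicle sample 2 (783) and of anti-CTLA-4 sample a (764), the samples high in both receptors. None of 7 monocyte and macrophage genes above background passed in either comparison, where 39.8% and 47.3% of all genes did. Their median log2 fold change was 0.66 after entinostat (0.47 for all genes) and -1.25 with anti-CTLA-4 against entinostat (-0.63 for all genes). Both medians had the directions of the receptors. Summed levels of the 11 measured ran from 467 to 2854 in vehicle, 953 to 2820 after entinostat and 308 to 1668 with anti-CTLA-4. Of 4 endothelial genes 2 rose after entinostat, namely the selectins Sele and Selp, where 35.2% of all genes did. The summed level of the 4 ran from 96.5 to 396 in vehicle and from 220 to 852 after entinostat. With anti-CTLA-4 against entinostat 2 of the 4 fell (Sele and Cdh5, a junction protein), where 41.1% of all genes did. The list's median was then -2.28 (-0.63 for all genes) and the sum ran from 122 to 564. Of 4 fibroblast genes above background 1 rose (Col3a1, a collagen) and 1 fell (Pdgfra, a growth factor receptor) after entinostat. Of all genes 35.2% rose and 4.55% fell there. The fibroblast sum of the 5 measured ran from 498 to 1589 in vehicle and from 773 to 1348 after entinostat. With anti-CTLA-4 against entinostat Pdgfra rose, as did 6.14% of all genes, and Col1a2, a collagen, fell, as did 41.1%. The fibroblast sum then ran from 565 to 1213. Itgax, the single dendritic cell marker of 5 that lay above background, rose after entinostat (1.43) and fell with anti-CTLA-4 against entinostat (-1.83), while Flt3 exceeded its sample's negative-control limit in 0 of 22 samples. The B cell gene Ms4a1, the only gene of the lymphocyte list that was measured, likewise exceeded it in 0 of 22. No marker was listed at 0, the lowest gene value being 1. The part of these other cell types in the receptor differences was not tested.

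The receptors were also compared with each other inside each sample. A sample's scaling factor cancels in such a difference except for the pseudocount of 1, which leaves part of it in low values. Log2 Fpr1 minus log2 Fpr2 averaged -1.88 ± 0.56 in vehicle (SD, n = 6), -1.97 ± 0.15 after entinostat (n = 4), -2.23 ± 0.16 with anti-PD-1, -1.94 ± 0.34 with anti-CTLA-4 and -2.30 ± 0.78 in the triple combination. None of the 10 pairs of groups differed by an exact two-sided permutation test. The lowest p was 0.0857 for anti-PD-1 against entinostat (adjusted 0.857), where 4 against 4 samples allow 0.0286 at the least, and the others had adjusted p of 0.921 to 1. Across samples the levels of Fpr1 and Fpr2 had r = 0.912 and rho = 0.932 (permutation p = 1e-05 each, the smallest possible). Their r was 0.966 on cartridge 1, 0.782 on cartridge 2 (permutation p = 0.00942) and 0.799 after group means were subtracted (rho 0.644). Without anti-CTLA-4 samples b and 1 their r was 0.877.

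Gene by gene, the profiles most like each receptor differed. Over all 22 samples the 5 genes with the highest Pearson r to Fpr1 were Rhog (0.927), a small GTPase, Cd80 (0.919), a costimulatory ligand for T cells, Gadd45b (0.919), a stress-response gene, Fpr2 (0.912) and Hdc (0.910), which makes histamine. The median r of all genes with Fpr1 was 0.527. For Fpr2 they included C5ar1 (0.988), the receptor of complement C5a, Laptm5 (0.983), Tyrobp (0.983), a signalling adaptor of myeloid receptors, and Hdc (0.983), against a median of 0.642. Fpr1 ranked 89 in that order. After group means were subtracted, the nearest genes were Gadd45b (0.869), Prok2, Nfkbia, Rhog and Tnfaip3 for Fpr1, and C5ar1 (0.985), Ptprc, Tyrobp, Ccr1 and Clec7a for Fpr2. Fpr2 then ranked 13 for Fpr1, and Fpr1 ranked 117 for Fpr2. These correlations describe 22 samples that share scaling factors and group differences, and Fpr1 has the lower counts of the pair.

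The panel also held Fpr3, Fpr-rs3, Fpr-rs4, Fpr-rs5 and Fpr-rs6, all 7 family members lying on chromosome 17. None of these 5 exceeded the negative-control limit in any of the 22 samples. Their highest barcode counts were 7, 8, 8, 6 and 9, so they were not tested and no level could be detected at this depth. How far the probes of this related family distinguish its members could not be read from the labels and was not tested.

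**Figure D4:**
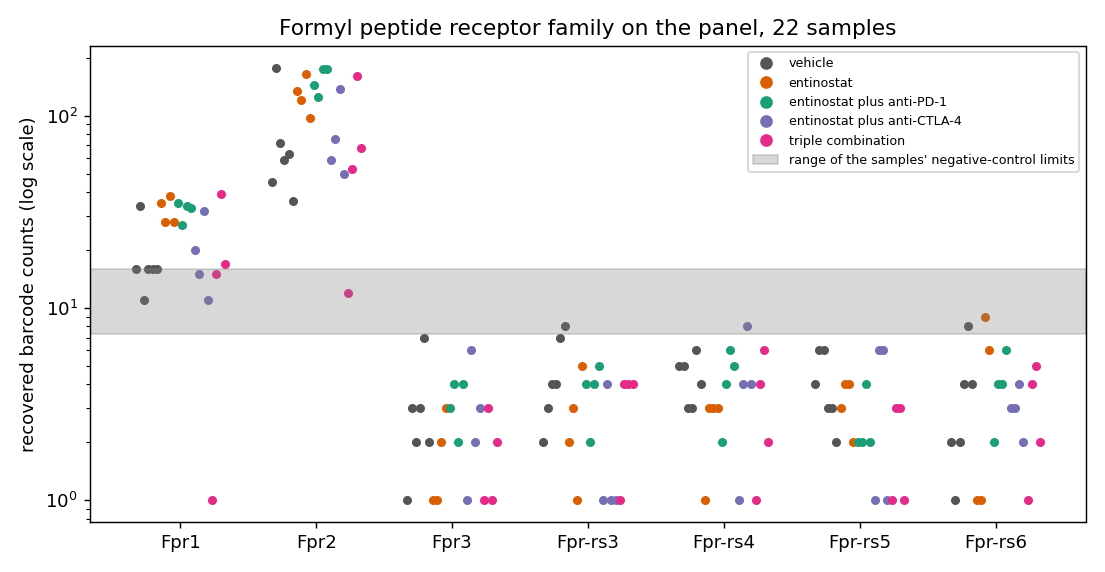
Recovered barcode counts, on a log axis, of the 7 formyl peptide receptor genes on the panel in 22 samples, with the range of the samples' negative-control limits shaded. Fpr2 lies above the shaded range in 21 samples and at 12 counts in triple combination sample 2, most Fpr1 values lie above or within it, and the other 5 genes stay at 9 counts or fewer.

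Few ligands of these receptors could be followed. Of 8 on the list 4 were measured and 2 lay above background. Anxa1, the annexin that Fpr2 binds, stood at 2380 normalized counts after entinostat and 2935 in vehicle, and the log2 difference of -0.29 ± 0.17 did not pass (limma adjusted p = 0.181). Camp, the precursor of the cathelicidin peptide and also a neutrophil marker here, rose after entinostat to 33.4 from 7.80 (1.85 ± 0.50, adjusted p = 0.0111). It fell with anti-CTLA-4 against entinostat (-2.23 ± 0.55, adjusted p = 0.00451). Camp exceeded its negative-control limit in only 10 of 22 samples, and it passed the background filter through the entinostat group alone.

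Other chemoattractant receptors of neutrophils changed in the same comparisons. Of 8 tested, 6 rose after entinostat, against 35.2% of all genes tested, with a median of 1.53 for the list and 0.47 for all genes. Cxcr4, which holds neutrophils in bone marrow, rose by 1.78 on the log2 scale (limma adjusted p = 0.00572), Cxcr2, a receptor for neutrophil-attracting chemokines, by 1.72 (0.00752), and C5ar1 by 1.71 (0.0104). Cxcr2 is also one of the neutrophil markers counted above. Ccr1, a chemokine receptor, rose by 1.53 (0.0104), Ptafr, the receptor of platelet-activating factor, by 1.52 (0.0208), and Ccrl2, a non-signalling chemerin receptor, by 1.42 (0.0154). C3ar1, the receptor of complement C3a, gave 0.67 (0.400), and Ltb4r1, the receptor of leukotriene B4, gave 0.81 (0.155). The same 6 were called with anti-PD-1 against vehicle, where 18.2% of all genes were higher, and the list's median was 1.45 against 0.27 for all genes. With anti-CTLA-4 against entinostat 6 fell, against 41.1% of all genes, from -1.87 for Cxcr4 and Ccrl2 to -2.06 for C5ar1. After entinostat the Fpr1 value of 1.73 lay within the range of the list and the Fpr2 value of 1.83 above it, and with anti-CTLA-4 both (-2.30 and -2.33) lay beyond it. No test of those differences was made.

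Below the receptors, 4 of 9 tested signalling genes rose after entinostat, where 35.2% of all genes did (list median 0.85 against 0.47). With anti-CTLA-4 against entinostat 5 of 9 fell, where 41.1% of all genes did (median -1.86 against -0.63). Pik3cg, the phosphoinositide 3-kinase gamma that chemoattractant receptors activate, rose by 1.34 ± 0.33 (limma adjusted p = 0.00889) and fell by 1.94 on the log2 scale (0.00269). Syk, a tyrosine kinase of adhesion and Fc receptors, rose by 1.68 (0.00905), Vav1, an exchange factor for Rac, by 1.40 (0.0117), and Alox5, which makes leukotrienes, by 1.33 (0.0181). Syk and Vav1 are also among the pan-leukocyte genes counted above. Gnai3, an inhibitory G protein subunit through which formyl peptide receptors signal, did not pass (0.21, 0.0856). The 5 that fell were Pik3cg, Syk, Vav1, Alox5 and Rgs1, a brake on G protein signalling (-1.86, 0.0109).

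Genes of the effector responses were called in the same comparisons. In the list for the NADPH oxidase and granule release, 3 of 4 tested genes rose after entinostat (35.2% of all genes, medians 1.46 and 0.47), and 4 of 4 fell with anti-CTLA-4 against entinostat (41.1% of all genes, medians -1.83 and -0.63). Both counts include Camp, which passed the background filter through the entinostat group alone. Mmp9, a granule protease, rose by 1.48 (limma adjusted p = 0.0109), while Cybb, the catalytic subunit of the oxidase, gave 0.89 (0.266). Mmp9 and Camp are also neutrophil markers here. Of the adhesion genes 9 of 9 tested rose and 8 fell in the same comparisons, against the same shares of all genes, with medians of 1.64 and -1.96. Several of these 9 were counted above as markers, namely Selplg (neutrophil), Itgb2 (pan-leukocyte), Itgax (dendritic cell), and Sele and Selp (endothelial). The lists are therefore not separate from the marker results. Among them were Selplg, a selectin ligand (1.78, adjusted p = 0.00752), and the integrins Itgal (1.61, 0.0178) and Itgax (1.43, 0.0204). Sele, an endothelial selectin, rose by 2.22 (0.0165).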

How the data were processed

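RNA of Ly6G-selected cells was counted on a NanoString nCounter mouse myeloid panel in 22 samples, which carried probes for 655 endogenous and 20 housekeeping genes beside 8 negative-control and 6 positive-control probes. The deposited values are a normalized signal, counts multiplied by a factor per sample, after which the housekeeping genes had a geometric mean of 172 to 194 in every column. The authors' processing used limma, per the submitters' processing notes, which give no version, and how the values were scaled is not given in the sources used here. Of the deposited gene values, 100% of those up to 200 were whole multiples, within 0.1, of a step per sample (0.400 to 9.78), values under 1 had been set to 1, and control rows were unscaled counts. Dividing by the step gave barcode counts. For 9 of 22 columns a separate search for the step did not find it, so count tests on all 22 rest on the step found here. Of 24 same-number pairs of samples, 10 had deviations from group means that correlated above 0.1 (median r -0.066). Of 76 pairs with different numbers, 32 did (median r -0.059). The numbers thus showed no sign of pairing, which does not exclude it, and samples were treated as unpaired. No 2 samples were alike within counting noise (chi-square divided by its degrees of freedom 2.72 or more).

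Values were tested as log2(normalized count + 1) with limma 3.58.1 in R 4.3.3, with a mean per group over all samples (17 residual degrees of freedom) and Benjamini-Hochberg adjustment over genes, two-sided, called under 0.05. Background was set at 29.3 normalized counts, 2 SD over the mean log2 value of the negative controls, exceeded by the log2 mean of at least 1 group in 440 genes, and 235 genes were left out. This filter was chosen after one on linear means had been seen. The same fit was repeated after subtracting each sample's mean log2 level of 9 neutrophil markers. Fpr1 minus Fpr2 was compared by exact permutation, and correlations by 100000 permutations. Alternatives covered scaling, pseudocount, filters, cartridge, sample weights, left-out samples and edgeR 4.0.16 on barcode counts. The named genes were the members, the 5 genes with the highest Pearson r to each, the chemoattractant receptors and up to 5 genes per role list with the smallest p after entinostat. Genes behind counts of 5 or fewer were named after their values were seen. Some genes that this rule selects are not reported here. Members and lists were chosen with earlier results of these data known.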

Additional observations from a re-analysis of the deposited data

Results flagged for a closer look

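Log2 Fpr1 minus log2 Fpr2 in triple combination sample 2 was -3.46, against -1.99 to -1.79 in the other 3 samples of the group. Its gap to the nearest sample made up 0.877 of the group's whole range, above Dixon's 95% critical value for 4 samples. Chance flags about 1 in 20 groups in this way. Fpr1 rested there on 1 barcode count, in the sample with the lowest total (23296), and Fpr2 on 12.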

How the results depend on the processing

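Calls for both receptors after entinostat against vehicle, and with anti-CTLA-4 against entinostat, kept their direction under every alternative run, and were lost only for Fpr2 after entinostat without vehicle samples V1 and V2 (1.59). The Fpr2 call with anti-PD-1 against vehicle was lost without V1 and V2 (1.23), with no background filter (1.47), with cartridge as a block (1.50), on cartridge 1 alone (1.41) and in edgeR (1.23 with deposited scaling, 0.998 with TMM factors). Calls with anti-CTLA-4 against anti-PD-1 were lost for both genes with cartridge as a block (-1.59 and -2.03), in a fit of those 2 groups alone (-1.69 and -1.97) and in edgeR with deposited scaling (-1.42 and -1.49), and for Fpr1 under quantile normalization (-0.70) or subtraction of the negative control mean (-1.81). Fpr1 in the triple combination against vehicle reversed under median centring (-0.11), quantile normalization (-0.35) and negative control subtraction (-0.37), and against anti-CTLA-4 under quantile normalization (-0.25). Sample weights made calls of Fpr1 with anti-PD-1 (1.34) and with anti-CTLA-4 (-0.88) against vehicle, of Fpr2 in the triple combination against vehicle (0.99), and of Fpr1 and Fpr2 in the triple combination against entinostat (-1.35 and -1.30), against anti-CTLA-4 (1.53 and 1.70) and in the interaction (2.20 and 2.17). Fits of the 2 groups alone called Fpr1 with anti-PD-1 against vehicle (1.12) and Fpr2 in the triple combination against entinostat (-1.28). Without both anti-CTLA-4 sample a and triple combination sample 2, an alternative chosen after seeing the data like the negative control subtraction, Fpr1 was called with anti-PD-1 against vehicle (1.12), and both genes in the triple combination against anti-CTLA-4 (1.64 and 1.66) and in the interaction (2.25 and 2.02). A filter on linear group means, also added later, changed no call of a member. The causes were not tested.

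Leaving out 1 sample at a time changed a call or a sign in some results. The log2 fold changes then ranged, for Fpr1, from 1.01 to 1.33 with anti-PD-1 against vehicle, -0.063 to 0.46 in the triple combination against vehicle, -1.80 to -1.27 against entinostat and 0.40 to 1.31 against anti-CTLA-4, and from -2.30 to -1.40 with anti-CTLA-4 against anti-PD-1. For Fpr2 they ranged from 1.30 to 1.77 with anti-PD-1 against vehicle, -2.63 to -1.62 with anti-CTLA-4 against anti-PD-1 and 0.69 to 1.71 in the triple combination against anti-CTLA-4. The interaction ranged from 1.02 to 1.92 for Fpr1 and 1.05 to 2.06 for Fpr2. Relative to neutrophil markers, entinostat against vehicle ranged from -0.17 to 0.10 (Fpr1) and -0.036 to 0.11 (Fpr2), the triple combination from -0.89 to -0.39 against vehicle and -0.47 to 0.031 against anti-PD-1 (both Fpr1), and the interaction from -0.30 to 0.23 (Fpr1) and -0.13 to 0.082 (Fpr2). Centred on pan-leukocyte markers instead, Fpr1 after entinostat (0.30) and Fpr2 with anti-PD-1 (0.20) and with anti-CTLA-4 (0.061) against vehicle reversed, with none called.

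Fpr1 minus Fpr2, never called, ranged from -0.25 to 0.055 for entinostat and -0.23 to 0.085 for anti-CTLA-4 against vehicle, -0.13 to 0.12 for anti-CTLA-4 and -0.50 to 0.058 for the triple combination against entinostat, and -0.24 to 0.31 and -0.53 to 0.028 for the triple combination against anti-PD-1 and anti-CTLA-4. It reversed with a pseudocount of 10 for anti-CTLA-4 against vehicle (0.11) and the triple combination against anti-PD-1 (0.13), and without V1 and V2 for entinostat (0.088) and anti-CTLA-4 (0.12) against vehicle. With the replicate number as a block the Fpr2 call with anti-PD-1 against vehicle was lost (1.23, limma adjusted p = 0.0560) and Fpr1 in the triple combination against vehicle reversed (-0.24), while no other call changed.

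Counts of called genes varied more than the members' own values. They ran from 57 (without V1 and V2) to 306 (sample weights) of 440 after entinostat against vehicle, 0 (cartridge 1 alone) to 225 (weights) with anti-PD-1 against vehicle, 122 (without anti-CTLA-4 sample 1) to 332 (weights) with anti-CTLA-4 against entinostat, and 0 (those 2 groups alone) to 297 (weights) with anti-CTLA-4 against anti-PD-1. Depth limits the precision of Fpr1, which had 39 barcode counts at the highest.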
